A study of Homo sapiens with 5 samples.

Results

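CXCR4, ACKR3 and CXCL12, the pair of receptors for one chemokine and the chemokine itself, were examined in human embryonic stem cells (hESC) that expressed wt or mutant miR-122. Every probe set whose platform gene symbol was CXCR4, ACKR3 (CXCR7 in older annotation) or CXCL12 was taken, which gave 6 of the 22215 probe sets tested: 3 for CXCR4, 1 for ACKR3 and 2 for CXCL12. The 3 genes were selected on the difference between wt and mutant miR-122-expressing cells on these same arrays, where the receptors were already known to differ in opposite directions. Their values are therefore given as a description, with no p, and support nothing further.

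All arrays held RNA of HES2, an established hESC line, transduced with a lentiviral vector that carried the genomic sequence of hsa-miR-122 under the H1 promoter, a constitutive polymerase III promoter, and a red fluorescent reporter under the EF1α promoter. The vector encoded wt miR-122 (2 arrays, replicates 1 and 2) or a mutant miR-122 with an altered seed (3 arrays, replicates 1 to 3). The control cells thus also carried a vector and a reporter. By the study's account its RT-PCR assay apparently missed the mutant miRNA, so the level of that RNA was not measured. Before differentiation the cells grew on human foreskin feeder cells with basic fibroblast growth factor (bFGF). They were then moved to fibronectin, without feeders or bFGF, and differentiated spontaneously for 2 weeks. The methods describe the replicates as independent experiments. The arrays were of bulk cultures, and the vector reached most but not necessarily all cells, as judged in the study by the red reporter. Fewer cells of a type and less RNA per cell cannot be told apart in such samples.

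The agent that differs between the groups is shown with its seed (bases 2 to 8) in capitals, since the mutant vector alters this stretch. The mature wt miRNA is 22 nucleotides long, from RefSeq, at chr18:58451088-58451109 on the + strand of GRCh38.p14.
hsa-miR-122-5p: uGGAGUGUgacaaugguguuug

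CXCL12 is a chemokine made largely by stromal and mesenchymal cells, and it guides the migration and retention of stem and progenitor cells. CXCR4 is a G protein-coupled receptor that signals through Gi proteins when it binds CXCL12. In differentiating hESC it is widely used as a surface marker of definitive endoderm, although blood, endothelial, neural and other progenitors carry it too. ACKR3 is an atypical receptor that binds the same ligand, engages arrestins rather than G proteins, and takes CXCL12 up from its surroundings. Lowering free CXCL12 in this way shapes the gradients to which CXCR4 responds.

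Values are log2 intensities normalized by RMA (robust multi-array average), and a difference is the mean of wt minus the mean of mutant miR-122-expressing cells on that scale, with the standard error (SE) of limma. With wt miR-122, CXCR4 was higher on each of its 3 probe sets, ACKR3 was lower and CXCL12 was higher on both of its probe sets than with mutant miR-122. In 5 of the 6 probe sets both wt arrays lay above the 3 mutant arrays, which was the case for 20.3% of all probe sets, and in 1 both lay below, which was the case for 12.5%. At an adjusted p under 0.05 from limma, 85 probe sets were called among all those tested (0.383%), and the ACKR3 probe set was among them while the other 5 were not. As the genes were chosen by this contrast, nothing is read from these counts.

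The CXCR4 probe set with the highest mean, 217028_at, read 6.64, 6.41 and 6.57 on mutant arrays 1, 2 and 3, and 7.44 and 6.95 on wt arrays 1 and 2. The groups did not overlap, and the lower wt array stood 0.31 above the highest mutant array. Mutant cells had a mean of 6.54 ± 0.12 (SD, n = 3) and wt cells one of 7.19 ± 0.34 (SD, n = 2), a difference of 0.65 (SE 0.14) or 1.57-fold. Ranked by size, it was the 52nd of the positive differences over all probe sets. It depended on the wt array, since the difference was 0.41 without wt replicate 1 and 0.90 without wt replicate 2.

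The other CXCR4 probe sets had the same order of groups. Probe set 209201_x_at read 6.28, 6.27 and 6.20 on the mutant arrays and 6.90 and 6.57 on the wt arrays, with means of 6.25 ± 0.05 (SD, n = 3) and 6.73 ± 0.23 (SD, n = 2). Its difference was 0.48 (SE 0.11), or 1.40-fold. Probe set 211919_s_at read 6.26, 6.22 and 6.30 on the mutant arrays and 6.93 and 6.51 on the wt arrays, with means of 6.26 ± 0.04 (SD, n = 3) and 6.72 ± 0.29 (SD, n = 2). Its difference was 0.46 (SE 0.12), or 1.38-fold. On all 3 probe sets wt array 1 was the highest of the 5 arrays and the mutant arrays lay within 0.23 of each other. By their suffixes, the probes of these 2 sets can match several transcripts, whereas those of 217028_at are not so marked.

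ACKR3, measured by probe set 212977_at alone, read 8.56, 8.25 and 8.42 on the mutant arrays and 7.48 and 7.04 on the wt arrays. Both wt arrays lay below the mutant arrays, with a gap of 0.76 between the nearest of them. Mutant cells had a mean of 8.41 ± 0.16 (SD, n = 3) and wt cells one of 7.26 ± 0.31 (SD, n = 2), a difference of -1.15 (SE 0.14), so that the level was 2.21-fold lower in wt. By size this was rank 8 of the 22215 probe sets and rank 6 among the negative differences. Without wt replicate 2 the difference was -0.93 and without wt replicate 1 it was -1.37.

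CXCL12 probe set 209687_at read 6.82, 6.80 and 6.64 on the mutant arrays and 7.19 and 7.24 on the wt arrays. The mutant mean was 6.75 ± 0.10 (SD, n = 3) and the wt mean 7.21 ± 0.04 (SD, n = 2), a difference of 0.46 (SE 0.085) or 1.38-fold. The other, 203666_at, read 6.79, 6.83 and 6.72 on the mutant arrays and 6.99 and 7.07 on the wt arrays. Here the mutant mean was 6.78 ± 0.05 (SD, n = 3) and the wt mean 7.03 ± 0.05 (SD, n = 2), a difference of 0.25 (SE 0.076) or 1.19-fold. On both probe sets the wt arrays lay above the mutant arrays and within 0.07 of each other. Leaving out any 1 array kept the differences between 0.40 and 0.50 for 209687_at and between 0.22 and 0.29 for 203666_at.

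**Figure D1:**
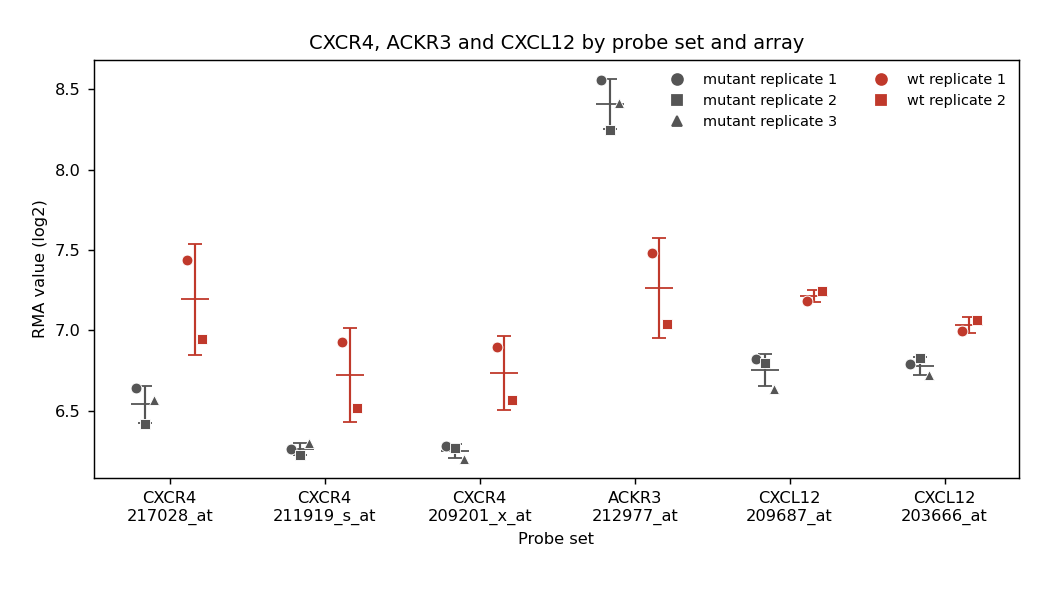
RMA values (log2, vertical axis) of the 6 probe sets of CXCR4, ACKR3 and CXCL12 on each array. Points are arrays (mutant grey, n = 3, and wt red, n = 2), wide bars the group means and whiskers the SD. The wt points lie above the mutant points for CXCR4 and CXCL12 and below them for ACKR3.

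The receptors and the ligand differed in how they varied between arrays of the same group. CXCR4 on 217028_at was 0.49 higher on wt array 1 than on wt array 2, and 0.815% of all probe sets differed by at least as much in either direction. ACKR3 was also higher on wt array 1, by 0.44, a size reached by 1.29% of all probe sets. The ligand showed no such gap, with wt array 1 minus wt array 2 at -0.06 for 209687_at and -0.07 for 203666_at. Among the mutant arrays, CXCR4 on 217028_at and ACKR3 both had the order replicate 1, 3, 2 from highest to lowest. This order together with wt 1 above wt 2 was seen in 8.89% of all probe sets. The 2 remaining CXCR4 probe sets did not have it.

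ACKR3 and CXCR4 on 217028_at thus differed in opposite directions between the groups but had the same order of arrays within them. Subtracting the ACKR3 value from that of CXCR4 (217028_at) on each array gave -1.92, -1.83 and -1.85 for the mutant arrays and -0.05 and -0.09 for the wt arrays. The level of this contrast depends on the probes and is not read, only its change between arrays. The contrast averaged -1.87 ± 0.05 (SD, n = 3) for mutant and -0.07 ± 0.03 (SD, n = 2) for wt cells, a difference of 1.80 (SE 0.039). This SE was computed from the contrast values alone and not by limma, so it is not comparable with the SEs of the probe sets. The SD within groups was 0.042 for the contrast and 0.22 for each receptor alone, so on this probe set the contrast varied less between arrays than either receptor. This did not hold to the same extent for the other CXCR4 probe sets: the contrast had a difference of 1.61 and an SD of 0.11 with 211919_s_at (0.17 for that probe set alone), and a difference of 1.63 and an SD of 0.14 with 209201_x_at (0.14 alone).

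**Figure D2:**
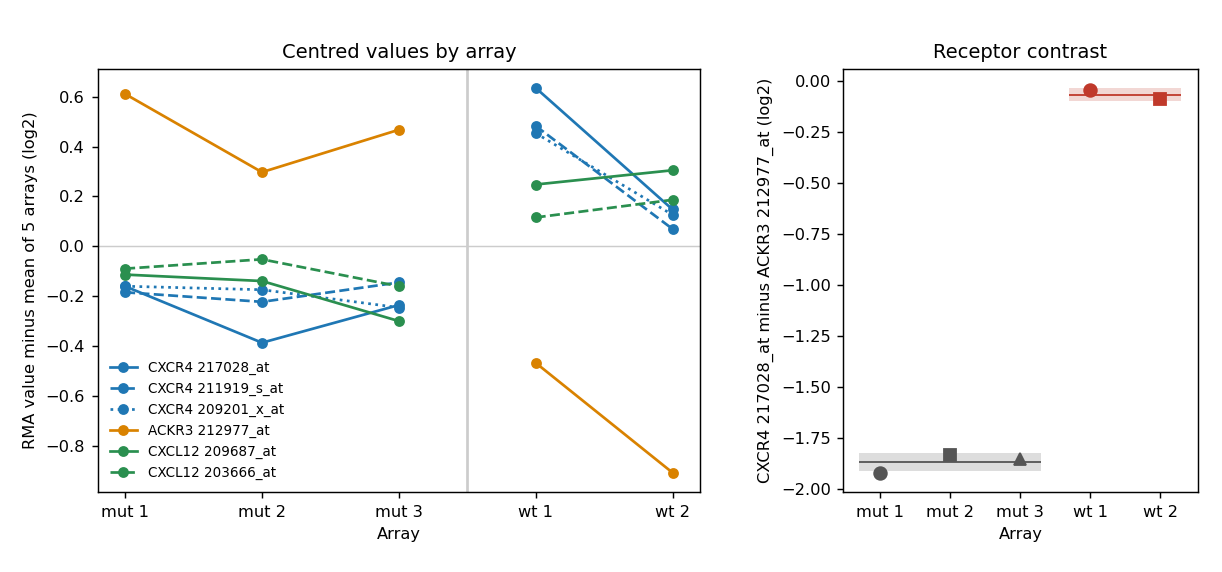
Left, each member probe set by array as the RMA value minus its mean over the 5 arrays (log2). Right, CXCR4 217028_at minus ACKR3 212977_at on each array (log2), with lines for group means and bands for the SD (3 mutant and 2 wt arrays). Within a group the solid CXCR4 line and the ACKR3 line move in parallel, and the contrast falls in narrow bands around -1.87 in mutant and -0.07 in wt.

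The genes most like each member were ranked by the root mean square distance over the 5 arrays between profiles centred on their own means. For CXCR4 (217028_at) the nearest were PMAIP1 (distance 0.088), which encodes the proapoptotic protein NOXA, UGT8 (0.096), a galactosyltransferase of myelin lipids, PRKCQ (0.096), a protein kinase C, GNAS (0.099), the stimulatory G protein alpha subunit, and GSAP (0.105). The centred CXCR4 profile had a root mean square of 0.362. PMAIP1 read 9.65, 9.28 and 9.57 on the mutant arrays and 10.24 and 9.96 on the wt arrays, so wt array 1 was the highest here as well. A gene picked for likeness to CXCR4 tends to share its order of arrays, so this is no separate result.

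For ACKR3 the nearest were DKK2 (distance 0.120), a secreted modulator of Wnt signalling, CDH6 (0.151), a cadherin, SORBS2 (0.173), an adaptor of the cytoskeleton, HAND1 (0.181), a transcription factor of trophoblast, amnion and lateral mesoderm, and SYNPO (0.188), an actin-associated protein. The centred ACKR3 profile had a root mean square of 0.587. DKK2 read 7.96, 7.68 and 7.91 on the mutant arrays and 7.12 and 6.76 on the wt arrays. In all 5 the wt arrays lay below the mutant arrays. As these genes were picked for likeness to ACKR3, this order follows from the ranking and is no separate result.

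For CXCL12 (209687_at) the nearest were MAGEA6 (distance 0.031), a cancer-testis antigen, PROCR (0.033), the endothelial protein C receptor, ASS1 (0.040), argininosuccinate synthase, ALDOC (0.042), an aldolase, and NKAIN1 (0.046). The centred CXCL12 profile had a root mean square of 0.235, and with 5 arrays many genes of like size lie close to any such profile.

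The other genes of the CXCL12 pathway were counted from 4 lists, with each gene at its probe set with the highest mean. Of 63 genes listed 57 were measured, and with wt miR-122 none rose, 1 fell (EPAS1) and 56 were not called at an adjusted p under 0.05 from limma. Over all 11963 genes the shares called were 0.267% higher and 0.234% lower. At an unadjusted p under 0.05 limma gave 4 of the 57 pathway genes higher and 6 lower, against 1057 and 822 of the 11963 genes. The median difference of the 57 genes was -0.00 against 0.03 for all genes. Both wt arrays lay above the mutant arrays for 7 of the 57 (12.3%) and below them for 13 (22.8%), where the shares over all genes were 21.5% and 13.4%.

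A further 14 genes were ligands, co-receptors, enzymes that cleave CXCL12 and the ubiquitin ligase ITCH. None of them was called, and their median difference was -0.02. CXCL11, the other chemokine that ACKR3 binds, was dim on these arrays and had a difference of 0.05 (SE 0.11, adjusted p = 0.872 from limma). MIF, a cytokine that also engages CXCR4, was bright and had a difference of 0.08 (SE 0.072), and CD74, the MIF receptor, had one of -0.32 (SE 0.15), with overlapping groups. DPP4, the dipeptidyl peptidase that inactivates CXCL12, had a difference of 0.01 (SE 0.13).

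The matrix metalloproteinases that cleave CXCL12 had lower means in wt cells, but none passed the test. MMP2 read 10.34, 10.61 and 10.80 on the mutant arrays and 9.96 on both wt arrays, a difference of -0.63 (SE 0.13, adjusted p = 0.0976 from limma). MMP9 had a difference of -0.38 (SE 0.13, adjusted p = 0.234 from limma) and MMP14 one of -0.20 (SE 0.094). In each of these 3 both wt arrays lay below the mutant arrays, as in 13.4% of all genes, although 1 of the 4 probe sets of MMP14 overlapped between the groups (-0.01). The neutrophil elastase ELANE, at a dim level, had a difference of 0.18 (SE 0.079, adjusted p = 0.346 from limma). CTSG, another protease of the list, had one of 0.14 (SE 0.081). For ELANE and CTSG both wt arrays lay above the mutant arrays, as in 21.5% of all genes.

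The next list held the proteins that carry or end the signal of the receptors. None of the 14 measured G proteins, receptor kinases (GRKs), arrestins and regulators was called, and their median difference was 0.02. GNAI1, a Gi alpha subunit, had a difference of -0.14 (SE 0.075), RGS16, which turns Gi signals off, one of -0.29 (SE 0.16), and GRK5 one of -0.15 (SE 0.098). GRK2 and ARRB1, which phosphorylate and bind the activated receptors, had differences of 0.03 (SE 0.077) and 0.08 (SE 0.094). ARRB2 and GNG2 were not analysed here.

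Of 21 measured kinases and effectors of migration none was called at its brightest probe set, with a median difference of 0.00. The phosphoinositide 3-kinase subunits gave the smallest p. PIK3R1, the regulatory subunit p85 alpha, differed by -0.40 on 212240_s_at (SE 0.099, adjusted p = 0.142 from limma) and by -0.38 on 212239_at. Its dimmest probe set, 212249_at, was called, with values of 5.49, 5.52 and 5.59 on the mutant and 4.80 and 4.86 on the wt arrays (-0.70, SE 0.075, adjusted p = 0.0293 from limma). All 3 PIK3R1 probe sets had both wt arrays below the mutant arrays, and with any 1 array left out 0 of all probe sets were called lower, so this call was lost too. The catalytic subunits PIK3CB (0.31, SE 0.087) and PIK3CG (0.28, SE 0.073, dim) had differences in the other direction that were not called.

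The list of transcription factors known to act on CXCR4 or CXCL12 also held VHL, which is not a transcription factor itself. Of its 8 measured genes, EPAS1 (HIF-2 alpha) fell. It read 10.27, 10.44 and 10.24 on the mutant arrays and 9.50 and 9.45 on the wt arrays, a difference of -0.84 (SE 0.086, adjusted p = 0.0293 from limma). Its other probe set, 200879_s_at, had a difference of -0.48 (adjusted p = 0.115 from limma). The fall of EPAS1 was known from earlier results of these arrays. With any 1 of the 5 arrays left out the difference stayed between -0.87 and -0.78 but was not called, with adjusted p from 0.0563 to 0.199 from limma. HIF1A, the other oxygen-regulated alpha subunit, had a difference of -0.10 (SE 0.083), NFKB1 one of -0.16 (SE 0.076) and YY1 one of 0.13 (SE 0.071).

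CXCR4, ACKR3 and CXCL12 were also set beside the rest of the chemokine system. None of 19 measured other chemokine receptors was called, their median difference was 0.10, and 12 of them lay below the 25th percentile of level over all probe sets. CCRL2, an atypical receptor, had the smallest p, with a difference of 0.32 (SE 0.087, adjusted p = 0.169 from limma), followed by CXCR5 (0.24, SE 0.072) and CCR9 (0.20, SE 0.083). None of 33 other chemokines was called, with a median of 0.05 and 21 below that percentile. The neutrophil attractants CXCL1 (-0.58, SE 0.17), CXCL6 (-0.62, SE 0.20) and CXCL8 (0.42, SE 0.14) had the smallest p and did not share a direction. The differences of CXCL6 and CXCL1 were larger in size than those of CXCR4 on 209201_x_at (0.48) and 211919_s_at (0.46). However, CXCL6 and CXCL8 were dim, and CXCL6 read 3.70, 3.61 and 4.35 on mutant arrays 1, 2 and 3.

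**Figure D3:**
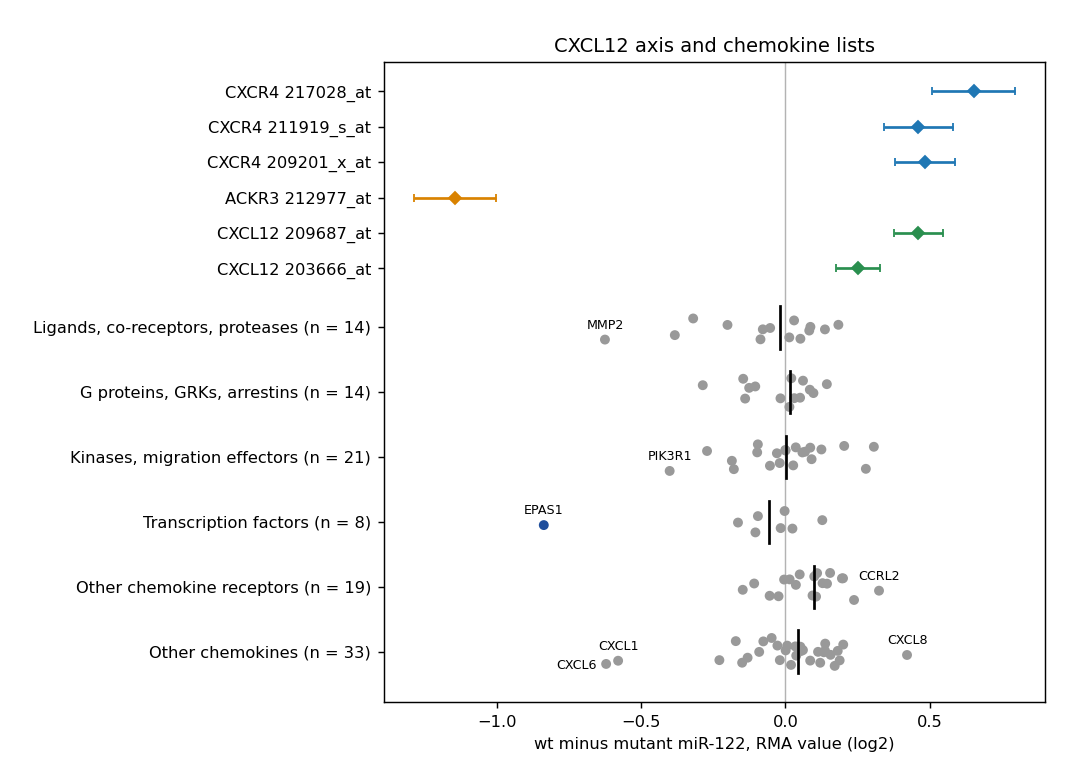
Differences of wt minus mutant miR-122 (log2, horizontal axis) for the member probe sets (diamonds with SE) and for the genes of 4 pathway and 2 chemokine lists (1 point a gene, at its brightest probe set). Black bars are list medians and blue marks a gene called lower. EPAS1 is the only called gene, and the list medians lie between -0.06 and 0.10.

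Markers of cell types that the cultures could hold were counted in the same way, since each member can be expressed by several of them. Of 16 markers of undifferentiated hESC 11 were measured, and in all 11 both wt arrays lay above the mutant arrays, as in 21.5% of all genes. DNMT3B (0.72), UTF1 (0.75) and FGF4 (0.56) rose, with adjusted p of 0.0333, 0.0424 and 0.0427 from limma (0.267% of all genes were called higher), and NANOG had a difference of 0.79 that was not called. The mean level over the list was 7.94 to 8.05 on the mutant and 8.50 to 8.52 on the wt arrays, with a median difference of 0.47. This shift runs in the direction of CXCR4 and CXCL12 and against that of ACKR3, and its part in their differences was not tested.

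CXCR4 is itself a marker of definitive endoderm, and 9 of 13 other markers of this lineage were measured. None was called at its brightest probe set, and their median difference was 0.08. The mean level was 5.23 to 5.52 on the mutant and 5.41 to 5.59 on the wt arrays. HHEX, a transcription factor of anterior endoderm, had a difference of 0.91 (SE 0.14, adjusted p = 0.0518 from limma), and its dimmer probe set 215933_s_at was called (0.98, adjusted p = 0.0228 from limma). GATA6 had a difference of -0.49 (SE 0.12) in the other direction. SOX17, a defining factor of the lineage, read 5.21, 4.95 and 5.93 on the mutant and 5.21 and 5.99 on the wt arrays. Its groups overlapped, and the part of this lineage in the CXCR4 difference was not tested.

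Fibroblasts and mesenchyme, a known source of CXCL12, had a lower mean in wt cells for 11 of 14 markers and a higher one for 3, and none of the 14 was called. In 7 of the 14 both wt arrays lay below the mutant arrays and in none above, where the shares over all genes were 13.4% and 21.5%. The list had a median difference of -0.34 and a mean level of 8.35 to 8.70 on the mutant and 8.03 to 8.29 on the wt arrays. LUM (-0.90), COL3A1 (-0.71) and COL1A1 (-0.60) had the largest differences. THY1 (0.23), FAP (0.20) and TWIST1 (0.20) had the higher means in wt cells, with overlapping groups. CXCL12 thus had the higher mean in wt on both probe sets while most of these markers had the lower one, and their part in its difference was not tested.

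Of 13 measured markers of trophoblast and amnion, HSD3B1 (-1.56), VTCN1 (-0.96), HAND1 (-0.91) and GABRP (-0.85) fell in wt cells, with adjusted p of 0.0424, 0.0293, 0.0228 and 0.0387 from limma (0.234% of all genes were called lower). CGA, the glycoprotein hormone alpha subunit, had a difference of -1.08 and was not called. TFAP2C (0.32) and PSG1 (0.16) had both wt arrays above the mutant arrays and were not called, and TFAP2A (-0.08) and GCM1 (-0.05) overlapped between the groups. Of the 13, 6 had both wt arrays below the mutant arrays, 2 above and 5 overlapped, and the median difference was -0.18. The mean level over this list was 7.77 to 7.98 on the mutant and 7.34 to 7.44 on the wt arrays. This mean and the called members had the direction of ACKR3. TFAP2C and PSG1, at their brightest probe sets, had the opposite one. The part of these cells in the ACKR3 difference was not tested. Calls in this and the hESC list had been seen in earlier results of these arrays and are not independent evidence of direction, and with any 1 array left out 0 to 3 of all probe sets were called higher and 0 lower.

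The remaining lists held no called gene at its brightest probe set. Of 11 measured endothelial markers the median difference was 0.10, KDR (0.35), ROBO4 (0.26) and ENG (0.15) had the largest differences, and the defining markers PECAM1, CDH5, TIE1 and EMCN were dim. The list mean was 4.68 to 4.73 on the mutant and 4.78 to 4.87 on the wt arrays. For 9 measured blood markers the median was 0.07, with list means of 4.94 to 5.02 and 5.03 to 5.10, and CD3E (0.28), TAL1 (0.24) and ITGAM (0.16) had the largest differences. For 9 measured neural progenitor markers the median was 0.08, with list means of 7.11 to 7.31 and 7.29 to 7.30, and DCX (0.34), FABP7 (0.29) and NES (-0.26) differed without a shared direction. The part of these cell types in the member values was not tested.

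**Figure D4:**
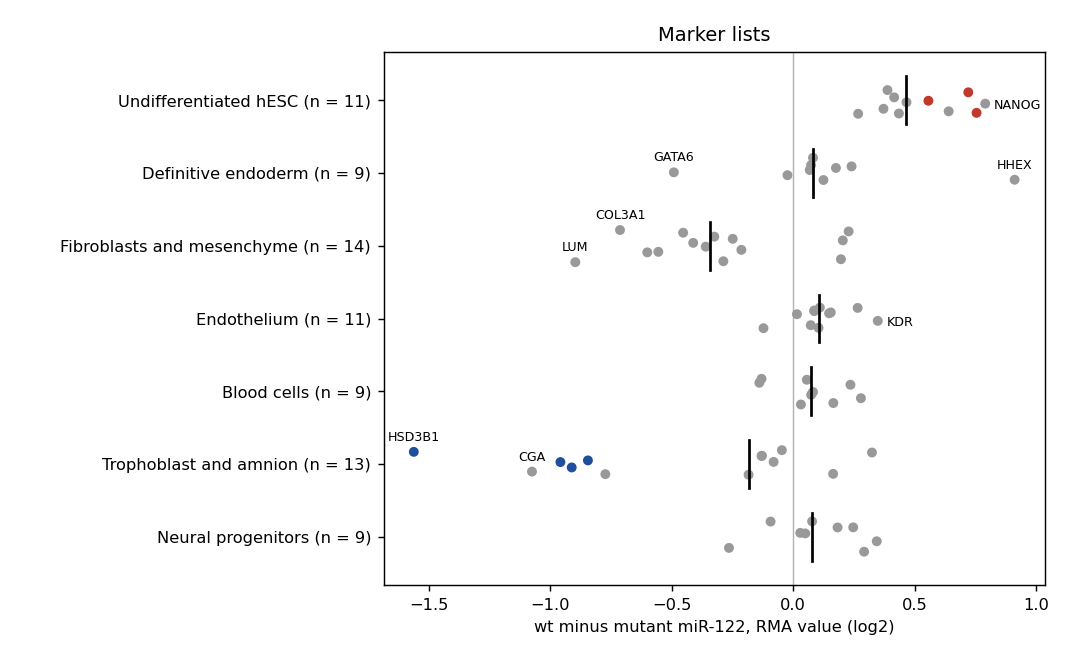
Differences of wt minus mutant miR-122 (log2, horizontal axis) for the genes of 7 marker lists, 1 point a gene at its brightest probe set. Black bars are list medians, red marks genes called higher and blue genes called lower. The hESC markers all lie right of 0, while most mesenchymal and trophoblast markers lie left of it.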

How the data were processed

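The authors hybridized total RNA to Affymetrix Human Genome U133A 2.0 arrays and deposited log2 values that, by their methods, were normalized with RMA; the values were taken as deposited. The array medians lay between 6.32 and 6.36, and the correlation between any 2 arrays across probe sets between 0.995 and 0.997. Precision is set by the number of arrays, and a difference had a median SE of 0.088 (log2).

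Of 22277 probe sets, 62 controls were left out. The other 22215 were fitted by group with lmFit and eBayes of limma 3.58.1 (R 4.3.3), with Benjamini-Hochberg adjustment over all of them and a threshold of 0.05. Genes were named through GEO's platform annotation, with 19052 symbols updated by Entrez ID. A single gene was given for 19064 probe sets, several genes for 1043, and the remaining 2108 are unnamed here. A listed gene is taken at its probe set with the highest mean. Tested on simulated data for wt against mutant (10 sets), with 200 of 22215 probe sets changed 2-fold, the fit recovered 86.8%, and 3.26% of its calls were false. Smaller changes were not simulated, and every member probe set but that of ACKR3 differed by less than 2-fold.

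The members and the lists, which were written from general knowledge, were chosen with earlier results of these data known. The genes named are every called gene of a pathway or chemokine list, otherwise the 3 with the smallest adjusted p (NFKB1 and YY1 are named beside the called EPAS1 although outside this rule), a few by role (CXCL11, MIF, CD74, DPP4, ARRB1, GRK2, HIF1A, EPAS1), the 3 markers of each list with the largest differences, and the 5 genes nearest each member. Called markers, SOX17, MMP14, CTSG, markers named for the opposite direction, the endothelial markers named by level and further probe sets were added after their values were seen. ITCH and VHL are named without values. As alternatives, each array was left out in turn, arrays were centred or weighted, the replicate number was added as a block, and the prior was made robust with a trend on intensity. Further alternatives kept only probe sets at or above the median level, dropped those marked as matching several transcripts, averaged a gene's probe sets, or used the methods' t-test. Plots were made in Python 3.11.15 (matplotlib 3.10.9).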

Additional observations from a re-analysis of the deposited data

How the results depend on the processing

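No difference of a member changed direction under any alternative run. Leaving out each array in turn moved the CXCR4 difference between 0.41 and 0.90 on 217028_at, between 0.25 and 0.67 on 211919_s_at and between 0.32 and 0.65 on 209201_x_at, with the lowest value without wt replicate 1 and the highest without wt replicate 2. A single wt array is assumed in these fits to vary like the mutant arrays. The contrast of CXCR4 minus ACKR3 was 1.61 and 1.63 with the other CXCR4 probe sets. Without 1 array, limma called 0 pathway genes lower, and of all probe sets 0 to 3 higher and 0 lower, where the fit with all arrays called 43 and 42 (1790 and 1415 at an unadjusted p under 0.05). The methods' t-test, unadjusted, gave 4 pathway genes higher and 5 lower, and 1551 and 873 of all probe sets. After Benjamini-Hochberg adjustment it gave 0 pathway genes lower, and 0 probe sets higher and 0 lower. An intensity trend with a robust prior called 2 pathway genes lower (EPAS1 and MMP2), and 137 probe sets higher and 183 lower. With the filter at the median level 97 probe sets were lower, and with the mean of a gene's probe sets 2 pathway genes were lower (EPAS1 and PIK3R1). The labels share replicate numbers but state no pairing. For the 2 shared numbers the deviations correlated at 0.147 and 0.123. With only 2 wt arrays the wt deviations mirror each other, so these correlations cannot tell whether equal numbers mark the same experiment. With the replicate block 3 pathway genes were lower (EPAS1, MMP2 and PIK3R1), and 364 probe sets were higher and 531 lower. The block leaves fewer residual degrees of freedom to estimate the variance, so the counts of that fit are not read as greater sensitivity. Mutant replicate 3 has no partner in that fit, so the member differences were the same as with that array left out (0.66 for CXCR4 217028_at). Of the 6 member probe sets, ACKR3 was the 1 called with all arrays; the trend and the filter added CXCL12 209687_at, the block called 5, and without any 1 array 0 were called. The cause of these changes was not tested, beyond the fewer arrays in a fit that leaves 1 out. The median difference of the pathway genes stayed between -0.05 and 0.01.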
